A study of Mus musculus with 2 samples.

Results

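The clustered protocadherins are cell adhesion genes that lie side by side on mouse chromosome 18. They were taken here as the protein-coding genes of that chromosome whose symbol starts with *Pcdha*, *Pcdhb* or *Pcdhg* in GENCODE M21, which gave 57 of 21938 protein-coding genes. Of these, 14 belonged to the *Pcdha* cluster, 22 to *Pcdhb* and 21 to *Pcdhg*. Accessible chromatin was mapped with ATAC-seq, a method in which a transposase tags open DNA for sequencing, in 2 biological replicates of wildtype (WT) FVB hearts at E11.5. Each replicate pooled 2 whole hearts, so cardiomyocytes, endocardial, epicardial and mesenchymal cells and any nerve, ganglion or blood cells were measured together, and fewer cells with open chromatin cannot be told apart from weaker opening in each cell. With a single group, nothing was compared between conditions. Pcdha11 stands for 2 annotated genes, named first (start at 37005203) and second (start at 37010752) here, and RefSeq calls the gene that begins at the start codon of the first one *Pcdha10*.

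Clustered protocadherins are known above all from neurons, where they give single cells a surface identity that lets a neurite recognise its own branches. In *Pcdha* and *Pcdhg* each variable exon has its own promoter and encodes the extracellular and transmembrane parts, and it is spliced to 3 constant exons that encode the shared cytoplasmic end, whereas each *Pcdhb* gene stands alone without constant exons. The alternate members, numbered within *Pcdha*, *Pcdhb*, *Pcdhga* and *Pcdhgb*, are chosen stochastically in single neurons, while the 5 C-type members, Pcdhac1, Pcdhac2, Pcdhgc3, Pcdhgc4 and Pcdhgc5, are expressed more uniformly. Promoter choice is known to depend on CTCF, cohesin, DNA methylation and distal enhancers.

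At the starts of the clustered protocadherins, listed peaks shared by both replicates were largely limited to *Pcdhg* and the C-type members. A region shared by the peaks of both replicates lay within 1 kb of the variable-exon start of 22 of 57 members (38.6%), against 63.7% of all protein-coding gene starts. *Pcdhg* accounted for 19 of them (19 of 21 members, 90.5%). In contrast, 0 of 12 alternate *Pcdha* and 1 of 22 *Pcdhb* members had a shared region, 2.94% of these 34 genes together. All 12 *Pcdhga*, 4 of 6 *Pcdhgb* and 5 of 5 C-type members had one. With or without a partner in the other list, replicate 1 had a peak at 23 members (65% of all starts had one) and replicate 2 at 24 (64.8%). Members lay at least 4131 bp apart, so no peak was assigned to more than 1 member through overlapping windows. Annotated starts of other genes lay within 1 kb of some of these regions. They were BC037039 at Pcdhgc3, Gm37118 at Pcdhga1, Gm37165 at Pcdhga8 and Gm26672 at Pcdhga11. Peaks there cannot be assigned to the member alone.

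The peak lists number their peaks, and 1.44% of the numbers in replicate 1 and 1.55% in replicate 2 are skipped in the lists used. Inside the *Pcdha* and *Pcdhg* clusters no number was skipped. Replicate 1 skips 1 number between Pcdhb1 and the stretch before *Pcdhg*, and replicate 2 skips 1 between Pcdhb21 and that stretch. The numbering of replicate 2 was complete over the windows of 19 *Pcdhb* members without a shared region, so no shared region can have been missed there through a skipped number, while at Pcdhb21 and Pcdhb22 further peaks were not analysed here. Among all protein-coding genes, 856 of 7955 starts without a shared region lay in such stretches, and the background of 63.7% would be 67.6% if all of these were counted.

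**Figure D1:**
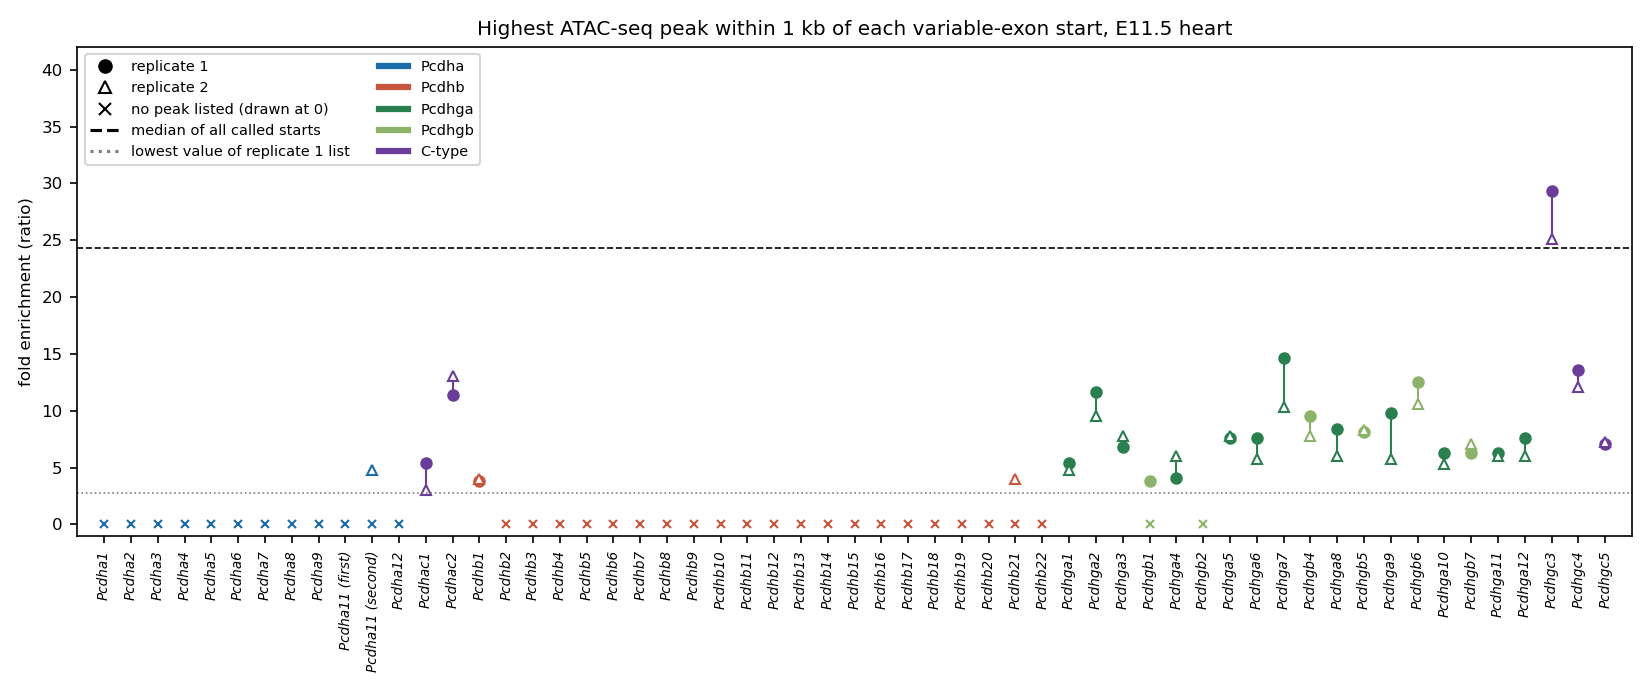
Fold enrichment (ratio, y axis) of the highest ATAC-seq peak within 1 kb of the variable-exon start of each of the 57 members (x axis, in genomic order), with replicate 1 as filled circles, replicate 2 as open triangles and members without a listed peak as crosses at 0. Peaks of both replicates occur at nearly all *Pcdhg* starts, and only Pcdhgc3 lies above the median of all called protein-coding starts (dashed line, 24.3).

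Fold enrichment, the reads at the peak summit relative to a genome-wide background, was low at most members with a shared region. The median of the mean of both replicates was 7.26, against 24.3 (quartiles 14.1 and 33.5) over all protein-coding starts with a shared region. Only 1 member exceeded that median, and 6 of 57 members (10.5%) reached a mean of at least 10, against 53.6% of all starts. The 2 lists reached down to 2.72 and 2.51, with medians of 5.70 and 5.03. Across the 22 members, which share libraries and are not replicates, the replicates had a Spearman rho of 0.80, and the median SD between replicates was 1.14.

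Among the C-type members, Pcdhgc3 stood highest. Fold enrichment at its start (position 37806410) was 29.3 in replicate 1 and 25.1 in replicate 2 (mean 27.2 ± 2.97 SD, n = 2), higher than 95.8% and 93.8% of the peaks in the respective lists. The shared region, chr18:37805977-37808566 (mm10), was 2590 bp long and covered 2157 bp of the variable exon. Both replicates of Pcdhgc3 lay above both replicates of every other member.

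Pcdhgc4, the next C-type gene, had 13.6 and 12.1 in a region of 2077 bp. The last variable exon before the constant exons, that of Pcdhgc5, had 7.06 and 7.29. In the *Pcdha* cluster, Pcdhac2 had 11.4 and 13.1. Its replicates overlapped those of Pcdhgc4 and lay above those of Pcdhgc5. Pcdhac1 was the weakest, with 5.43 in replicate 1 and 3.02 in replicate 2, the latter higher than only 0.743% of the peaks of that list.

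The alternate *Pcdhg* members formed a nearly continuous series of modest peaks. Of 18 such genes, 16 (88.9%) had a shared region, with mean fold enrichments from 5.05 to 12.5. The highest was Pcdhga7, with 14.7 in replicate 1 and 10.3 in replicate 2 (mean 12.5 ± 3.08 SD, n = 2). Pcdhgb6 followed with 12.5 and 10.6. Pcdhga2 had 11.7 and 9.55. The replicates of these 3 genes overlapped, so their order was not separated by the spread between replicates.

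In the first part of the cluster, Pcdhga1 had 5.43 and 4.78, close to the list medians. Pcdhga3 had 6.79 and 7.79. Pcdhga4 had 4.07 and 6.03, the lowest mean of the alternate *Pcdhg* members with a shared region. The interval between Pcdhga3 and Pcdhga5 also held both *Pcdhgb* members without a shared region. Pcdhgb1 had a peak in replicate 1 alone (3.80), and Pcdhgb2 had none in either list.

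Further along, Pcdhga5 had 7.61 and 7.79. Pcdhga6 had 7.61 and 5.78. Pcdhgb4 reached 9.51 and 7.79. Fold enrichments of this size recurred in the neighbouring variable exons. Pcdhga8 had 8.42 and 6.03. Pcdhgb5 had 8.15 and 8.30. Pcdhga9 had 9.78 and 5.78, the largest gap between replicates after that of Pcdhgc3 and Pcdhga7. The last 4 alternate members lay between 5.28 and 7.61. Pcdhga10 had 6.25 and 5.28. Pcdhgb7 had 6.25 and 7.04. Pcdhga11 had 6.25 and 6.03. Pcdhga12, the last alternate member, was in the same range with 7.61 and 6.03, but a window of 2 kb takes in another region of its exon and raises its mean from 6.82 to 11.54. Among the 16 alternate *Pcdhg* members with a region, the replicates had a Spearman rho of 0.633, and the rho of mean fold enrichment with position along the cluster was -0.056.

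The alternate *Pcdha* genes showed the reverse picture. In replicate 1, none of the 12 had a peak in its window. In replicate 2 only the second Pcdha11 had one, with a fold enrichment of 4.78 and a summit 53 bp past the start. These 12 starts lay in a stretch of 286.6 kb, from the region before the cluster to the start of Pcdhac1, that held no shared region, no replicate 1 peak and 1 replicate 2 peak. The 100 kb before *Pcdha* held no peak of either replicate.

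Pcdhb1, the first *Pcdhb* gene, was the only one of its cluster with a shared region, and its values of 3.80 and 4.02 were the lowest mean of all 22 members (3.91). Pcdhb21 had a peak in replicate 2 alone (4.02). For the remaining 20 *Pcdhb* genes neither list gave a peak. Peaks in 1 replicate only occurred at 3 members in all, against 2.14% of protein-coding starts. Each of these 3 had a fold enrichment below the median of its list.

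**Figure D2:**
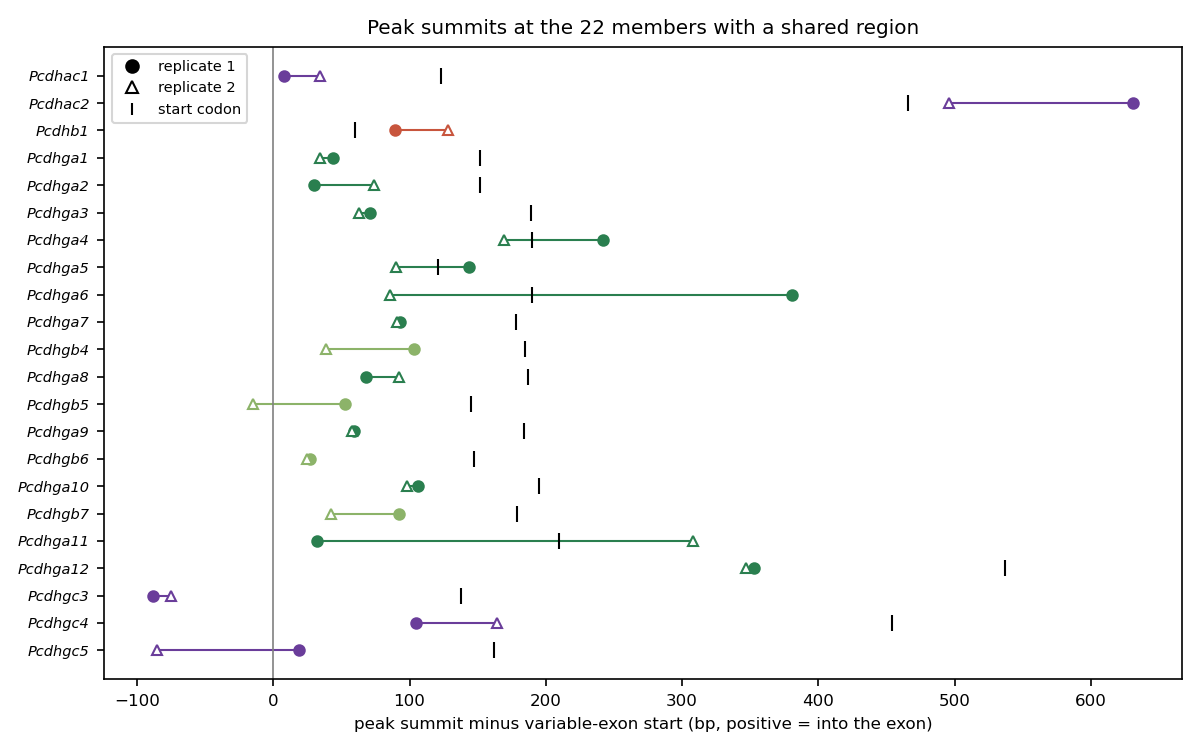
Position of the peak summit relative to the variable-exon start (x axis, bp, positive values into the exon) for the 22 members with a shared region (y axis), in replicate 1 (filled circles) and replicate 2 (open triangles), with the start codon as a vertical tick. Most summits lie between the start and the start codon, whereas those of Pcdhac2 and Pcdhb1 lie past the start codon in both replicates.

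Summits sat just inside the variable exons. The median summit was 80 bp past the start in both replicates, and summits lay past the start in both replicates at 19 of 22 members. The same share over all protein-coding starts was not computed, so this count is not shown to be particular to these genes. At 17 of 22 (77.3%) both summits were within 200 bp of the start, against 68.9% of protein-coding starts with a shared region. Pcdhac2 was farthest, with summits 631 and 496 bp past the start and its start codon at 466 bp. Pcdhga12 had summits at 353 and 347 bp, short of its start codon at 537 bp. At Pcdhgc3 the summits lay 88 and 75 bp before the start. Pcdhga6 and Pcdhga11 had summits that differed between replicates by 295 and 276 bp within 1 shared region.

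Similar sequence among the members could make short reads map to several places, and the authors removed reads of low mapping quality. In the window of each member, a median of 98.8% of 50-mers (50 bases, the read length in the labels) occurred only once in the genome. The lowest share was 82.1% at Pcdha7. Among the alternate *Pcdha* genes the median was 91.3%, whereas it was 100% in *Pcdhb* and 99.8% in *Pcdhga*. Windows under 90% numbered 9, of which 5 were alternate *Pcdha* and 3 were *Pcdhb* genes, and only Pcdhgb4 among them, at 88.2%, had a shared region. Of the 48 members with at least 90%, 43.8% had one. A total of 10 *Pcdhb* genes without a listed peak had windows in which every 50-mer was unique. Among members with a region, the rho of mean fold enrichment with this share was -0.049 (n = 22).

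CpG-rich starts are mostly open in many tissues, and CpG density was compared with accessibility by the ratio of observed to expected CpG. From 250 bp before to 50 bp after the start, 22 members had a ratio of at least 0.6. Only 8 of these (36.4%) had a shared region, against 93.6% of all protein-coding starts with such a ratio and 37.7% of those below it. Over the first kb from the start, which holds mostly coding sequence, 27 members reached 0.6 and 15 of them (55.6%) had a region, against 94.5% of all starts.

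**Figure D3:**
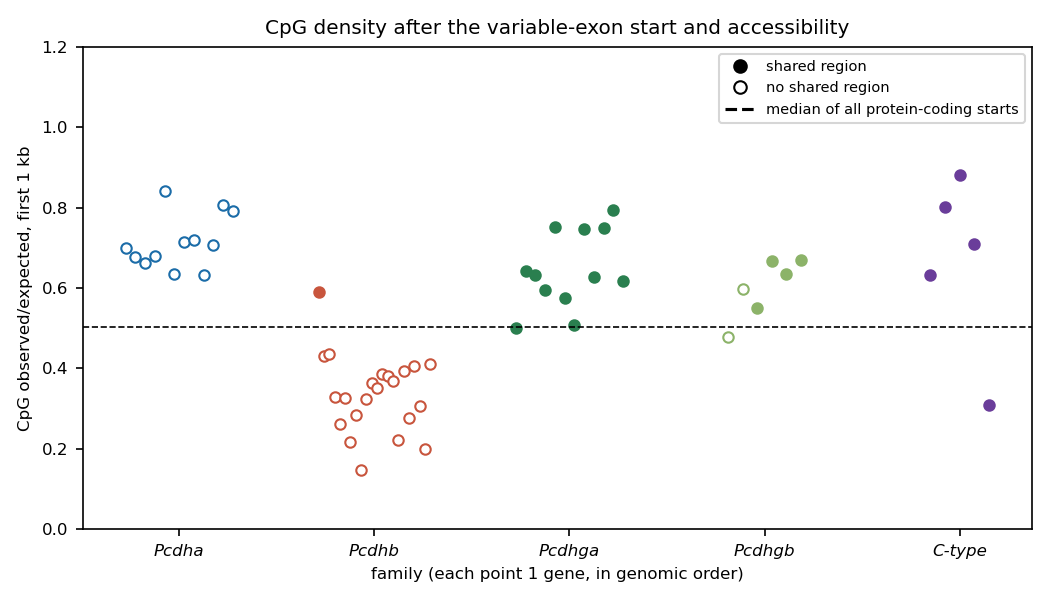
Observed over expected CpG in the first kb from the variable-exon start (y axis) for each member, grouped by family (x axis), with filled points for members with a shared region and open points for those without. The 12 alternate *Pcdha* genes have ratios as high as those of *Pcdhga* without any shared region, while *Pcdhb* genes other than Pcdhb1 lie below the median of all protein-coding starts (dashed line, 0.504).

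The families differed in this ratio. In the first kb its median was 0.704 in the alternate *Pcdha* genes, 0.629 in *Pcdhga*, 0.616 in *Pcdhgb* and 0.709 in the C-type genes, but 0.340 in *Pcdhb*. All 12 alternate *Pcdha* genes reached 0.6 and had no shared region, whereas 0 of 22 *Pcdhb* genes reached it. Pcdhb1 had the highest ratio of its cluster (0.591). Pcdhgc5 carried a shared region at a ratio of only 0.309. Within the 16 alternate *Pcdhg* members with a region, the rho of mean fold enrichment with the CpG ratio around the start was 0.044.

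CTCF, the insulator protein that anchors chromatin loops with cohesin, is known to bind alternate *Pcdha* exons. A core motif, made of CCA, any 2 bases, AG, any 2 bases and GGC, was searched on both strands. In the 300 bp around the start, 0 of 57 members matched it, against 2.48% of all starts. Within 1 kb 9 members (15.8%) did, against 13.1% of all starts. Of these, 7 were alternate *Pcdha* genes (*Pcdha1*, *Pcdha4*, *Pcdha6*, *Pcdha7*, *Pcdha8*, *Pcdha9* and *Pcdha12*). Each of these matches lay on the plus strand, 465 to 587 bp past the start, inside the variable exon. These 7 genes had no peak in their windows in either list, so matches and peaks could not be compared there. The other matches lay before the start, at -333 bp from that of Pcdhac2 and at -782 bp from that of Pcdhga2. A match to these letters is not evidence of binding, and the lack of a match does not show that a CTCF site is absent.

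Across the 3 clusters with 100 kb on each side, which span 1111.69 kb, 46 regions were shared by both replicates, 22 in the windows of members and 24 outside. Their density was 13.7 per 100 kb in the variable exons of *Pcdhg* and 30.4 in its constant exons (15.2 without 3 regions that held no summit of either replicate, left out after the values were seen), against 3.63 in the genome and 3.87 on chromosome 18. In the variable exons of *Pcdha* it was 1.39, in the constant exons of *Pcdha* 4.86, and in *Pcdhb* 0.385. Shared regions covered 9.28% of the *Pcdhg* variable stretch and 0.874% of that of *Pcdha*, against 2.06% of the genome.

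**Figure D4:**
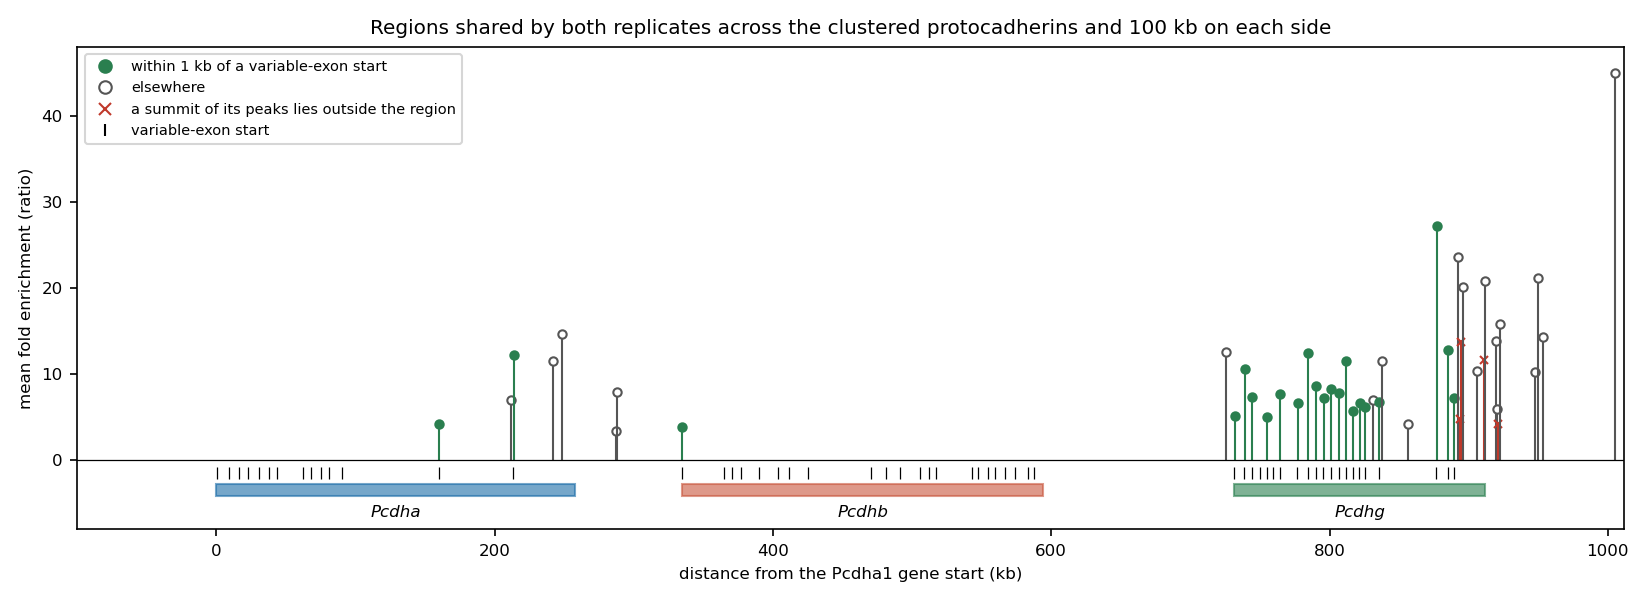
Mean fold enrichment of both replicates (ratio, y axis) at each of the 46 shared regions against distance from the start of *Pcdha1* (x axis, kb), with boxes for the 3 clusters and ticks for the variable-exon starts. Filled points lie within 1 kb of a variable-exon start, red crosses mark regions whose value belongs in 1 or both replicates to a summit outside the region, and the densest and highest series runs from *Pcdhg* into the neighbouring gene *Diaph1*.

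Outside the start windows, the strongest sites of the *Pcdhg* cluster surrounded its constant exons. The region chr18:37821725-37823262, which began in the end of the Pcdhgc5 variable exon, had 23.1 in replicate 1 and 24.1 in replicate 2. The region chr18:37824620-37826908 covered constant exon 1 and had 18.5 and 21.9. An annotated start of Gm38182 lay within 1 kb of both of these regions. At chr18:37841060-37843451, over the end of constant exon 3 and past the cluster, the values were 20.4 and 21.4. These 3 regions lay below Pcdhgc3 and above every alternate member in each replicate. A weaker region in the last intron, chr18:37835348-37836740, had 11.4 and 9.30 and held a CTCF core match.

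Smaller shared regions at chr18:37823888-37824049, chr18:37824281-37824559 and chr18:37840949-37841006 were overlaps of neighbouring peaks whose summits lay elsewhere in both replicates. Their means of 4.74, 13.8 and 11.7 therefore belonged to adjacent sites. Within the variable stretch, 3 regions lay outside the windows of members. The region chr18:37767479-37768501 lay wholly inside the Pcdhga12 variable exon, near an annotated start of Gm26672, with 12.8 and 10.3. It was higher in both replicates than the region at the start of Pcdhga12. At Pcdhgb8, annotated as a polymorphic pseudogene and thus no member, the values were 7.06 and 7.04, in the range of the neighbouring alternate genes. The remaining region, chr18:37786485-37786849, was weak, with 4.62 and 3.77.

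In the *Pcdha* cluster the shared regions lay at its downstream end. Both regions of the constant-exon stretch fell into the intron between constant exons 2 and 3. At chr18:37178078-37178857, near the annotated start of Gm10544, fold enrichment was 13.6 and 15.8. At chr18:37172180-37172666, near that of Gm38097, it was 10.6 and 12.6. The first lay above and the second below Pcdhac2, the highest *Pcdha* start, in both replicates. A further region before Pcdhac2, chr18:37141637-37141998, had 7.88 and 6.03.

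Between *Pcdha* and *Pcdhb* there were 2 shared regions. The stronger one, chr18:37218173-37218495, lay 30.5 kb past the end of *Pcdha* and had 8.42 and 7.54, with summits 1 bp apart. The other, chr18:37217339-37217527, had 3.80 and 3.02 and held a CTCF core match. Before *Pcdhg*, chr18:37655510-37656110 at the annotated start of the non-coding gene 3222401L13Rik had 14.7 and 10.6, above the first member Pcdhga1 in both replicates. Of the 46 regions, 3 (6.52%) held a CTCF core match within 300 bp at the summit, against 5.90% of all shared regions. In 37 of the 46 regions every 50-mer was unique, and the lowest share was 92.9%.

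Past *Pcdhg*, the density remained high at 9 shared regions in 100 kb, all but the first within or at *Diaph1*, a formin that assembles actin filaments. The start of *Diaph1* had the highest region of the whole span, with 45.4 and 44.5. Inside its body, chr18:37879733-37880606 had 23.4 and 18.8. The region chr18:37851998-37852970 had 17.1 and 14.6. In each replicate, both were stronger than any member start except that of Pcdhgc3. Next in level were chr18:37883468-37884159, with 15.8 and 12.8 and a CTCF core match, and chr18:37849390-37850267, with 13.85 and 13.83. The region chr18:37877204-37878014 had 10.6 and 9.80. The other *Diaph1* regions, chr18:37850590-37851013 and chr18:37851112-37851359, had means of 5.98 and 4.22, and the summit of replicate 1 lay outside the latter.

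Other genes of the protocadherin system are given beside the same background of 63.7% of all protein-coding starts and 93.6% of CpG-rich ones, without a test. Among 12 non-clustered protocadherins, adhesion genes each with its own locus, 10 (83.3%) had a shared region at the start, with a median mean fold enrichment of 24.6. The highest were Pcdh9 with 36.7 and 32.7, Pcdh17 with 37.2 and 29.9, and Pcdh7 with 33.1 and 30.9. Pcdh12, a protocadherin of endothelial cells, was the lowest with 4.89 and 4.27, and Pcdh1 and Pcdh15 had no peak in either list. Of the clustered genes, only Pcdhgc3 lay above the median of these 10.

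All 16 genes for factors of chromosome architecture and silencing had a shared region (median 31.8). They were led by Stag1, a cohesin subunit, with 49.98 and 48.02. Pds5b, a cohesin regulator, had 45.1 and 43.2. Smchd1, a silencing factor of clustered genes, had 42.6 and 41.5. The lowest was Setdb1, an H3K9 methyltransferase, with 14.4 and 14.8. All 10 genes for cytoplasmic partners, kinases and actin regulators that act below the membrane, had one too (median 34.4). Fyn had 44.3 and 38.7. Abi1 had 36.9 and 40.5, and Nckap1 36.9 and 37.7, both subunits of the WAVE complex. Ptk2b, a kinase bound by the constant regions, was the lowest with 7.88 and 6.54.

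The labelled tissue was checked against cell type markers. Shared regions lay at 7 of 7 cardiomyocyte, 3 of 4 endothelial (without Pecam1), 3 of 3 epicardial and 3 of 3 blood markers. The share was 63.7% over all protein-coding starts and 93.6% over CpG-rich ones. Of 6 neuronal markers, 3 had a shared region. The median mean fold enrichment was 14.2 at the called cardiomyocyte markers and 10.3 at the called neuronal ones, and the mean of Snap25 (15.8) lay above both. Snap25 had 18.2 and 13.3, Tubb3 9.78 and 10.8, and Elavl4 9.51 and 6.79, whereas Elavl3, Stmn2 and Rbfox3 had a peak in replicate 1 alone (3.53 to 4.62). The part of neural cells in the peaks at the clustered protocadherins was not tested.

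Other clustered families are given for comparison, without a test. Of 39 Hox genes 14 (35.9%) had a shared region, with a median mean fold enrichment of 5.19, and of 49 keratin genes 7 (14.3%) had one, with a median of 5.76. The clustered protocadherins as a whole lay near the Hox genes in share, while their median of 7.26 was higher than that of either family. *Pcdhg* alone, at 90.5%, lay above both.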

How the data were processed

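Per the labels, E11.5 heart ATAC-seq libraries were sequenced as single 50-base reads. Reads were trimmed (Trim Galore 0.6.6, Cutadapt), mapped to mm10 (GRCm38) with Bowtie2 2.4.2 and filtered for mapping quality and duplicates with SAMtools 1.12, and peaks were called by the authors in each replicate with MACS2 without a local background. The deposited lists (118027 and 114783 peaks) give fold enrichment, a ratio at the summit. The lists end at smaller p-values than the limit in the methods, and their shortest peaks are longer than the extension stated there, so weaker peaks are not in them. They also hold deposited −log10 p and −log10 q values and a score. Read totals are unknown, and counting intervals were therefore not given.

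Shared regions were the overlaps (at least 1 bp) of both lists (bedtools 2.31.1), merged where they touch. The start of a gene was the 5′ end of the first exon of its longest coding transcript (GENCODE M21), with 1 kb on each side, and the highest overlapping peak of each replicate gave its value. Exact 50-mers were counted on both strands of GRCm38. No test between groups was possible, and the alternatives tried are given below. The members and lists were chosen with earlier results of these data known. Named were members with a peak, the 10 highest regions inside the clusters, those of the *Pcdha* constant exons, between *Pcdha* and *Pcdhb* and past *Pcdhg*, and, of the lists of non-clustered protocadherins, architecture factors and cytoplasmic partners, the 3 highest, the lowest and those without a region. The marker, Hox and keratin lists are given mainly as counts. Other genes and regions were named after their values were seen. The other genes between *Pcdhb* and *Pcdhg*, where peak numbers are skipped, and 1 further marker list are not reported here. The code was tested on simulated data, with Python 3.11.15, NumPy 2.4.6, SciPy 1.17.1, Numba 0.67.0 and Matplotlib 3.10.9.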

Additional observations from a re-analysis of the deposited data

How the results depend on the processing

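No paired analysis was possible because the samples form 1 group. Of 22 members with a shared region, all 22 remained with the start codon or any annotated transcript start in place of the exon start, with windows of 500 bp or 2 kb, and with summits required inside the window. The share of all protein-coding starts was 50.7% with the start codon, 67.6% with any start and 61.3% to 66% with the other 3. A p-value limit of 0.00001 left 21 members (63.4% of all starts) and, in the *Pcdha* cluster with its C-type genes, 1 member instead of 2 (without Pcdhac1). A reciprocal overlap of at least 50% left 21 (without Pcdhga12), against 62.3% of all starts. A q-value limit of 1e-10 left 17, with 1 *Pcdha* and 0 *Pcdhb* members, against 58.9% of all protein-coding starts. A q-value limit of 1e-20, chosen after the data were seen, left 6 members (1 *Pcdha*, 0 *Pcdhb*, 5 *Pcdhg*), against 54.8% of all starts, with a median mean fold enrichment of 12.4, and 13 instead of 35 regions in the clusters. With 1 replicate left out, members numbered 23 to 24, regions touching the clusters 38 in either case, *Pcdha* members 2 to 3, *Pcdhb* members 1 to 2 (2 without replicate 1), *Pcdhg* members 19 to 20, and the median fold enrichment was 6.54 to 7.61. The lists hold no depth, and some weak peaks lie near their lower end. The peak of Pcdhac1 was higher than 44.8% of the replicate 1 list but only 0.743% of that of replicate 2. That of Pcdhb1 was higher than 8.82% and 24.9%. An absent peak therefore does not show closed chromatin.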
